A study of Mus musculus with 6 samples.

Results

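The cell cycle and DNA replication genes are a list of 35 genes that encode the cyclins, kinases, replication factors and mitotic proteins of dividing cells. Each gene was represented by the probe set with the highest mean log2 signal over all samples, among probe sets annotated to that gene alone. This gave values for 34 of the 35 listed genes, of 18194 genes with such a probe set in all, and no probe set was named for Ccnb1 in the annotation used here. All 34 probe sets passed the filter on dim signals.

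The study measured RNA from mouse skin at embryonic day 16.5 in 3 samples from Tcfap2c mutant embryos and 3 samples from control embryos, 1 biotin-labelled sample per Affymetrix array. Values are MAS5 signals, a brightness per probe set in arbitrary units scaled to the same trimmed mean of 500 on every array. Tcfap2c, now named Tfap2c, encodes the transcription factor AP-2 gamma of surface ectoderm and epidermis. The labels name neither the mutant allele nor a promoter or Cre, and they do not say whether embryos shared a litter. Sample labels give the tissue as skin, although the series title says epidermis, and the description of the control samples also mentions the mutation, while their titles say control. Since nothing in the labels ties the samples of a group to separate litters, p-values measure only the spread between these samples, which may be technical.

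A dividing cell passes from G1, where cyclin D with Cdk4 and cyclin E with Cdk2 release E2F factors from the retinoblastoma protein, into S phase, where the MCM helicase opens replication origins. Cyclin A and cyclin B with Cdk1 then drive the cell through G2 into mitosis, where the spindle checkpoint holds the chromosomes until all are attached. In embryonic epidermis, division is mainly a property of the basal layer, and suprabasal keratinocytes leave the cycle as they differentiate. Dermal and other cells of the skin also divide at this stage.

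Promoter sequences were matched for 29 of the 35 genes (RefSeq, GRCm38.p6, 250 bases before to 50 bases after each start). Ccnd1, Ccnd2, Ccne2, Mcm4, Ccna2 and Aurkb had no entry. The following 3 promoters are shown because they carry, for a G1, a replication and a mitotic gene, the letters that recur in the promoters of their groups. Capitals mark every match, on both strands, to TTTCGCGC or TTTGGCGC (the E2F motif), TTTGAA (the cell cycle homology region), CCAAT (the CCAAT box) or GCCNNNGGC (the AP-2 motif). The 2 spellings of the E2F motif can overlap, as can neighbouring AP-2 matches. The Ccne1 window is chr7:38107441-38107740, the Mcm6 window chr1:128359656-128359955 and the Cdk1 window chr10:69352863-69353162, all on the minus strand and written 5′ to 3′.
Ccne1: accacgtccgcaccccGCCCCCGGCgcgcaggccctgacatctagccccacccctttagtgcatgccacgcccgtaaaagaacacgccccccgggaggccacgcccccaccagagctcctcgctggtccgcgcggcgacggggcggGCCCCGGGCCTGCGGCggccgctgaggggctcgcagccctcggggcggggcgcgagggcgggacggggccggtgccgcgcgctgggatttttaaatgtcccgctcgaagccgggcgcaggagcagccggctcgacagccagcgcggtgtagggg
Mcm6: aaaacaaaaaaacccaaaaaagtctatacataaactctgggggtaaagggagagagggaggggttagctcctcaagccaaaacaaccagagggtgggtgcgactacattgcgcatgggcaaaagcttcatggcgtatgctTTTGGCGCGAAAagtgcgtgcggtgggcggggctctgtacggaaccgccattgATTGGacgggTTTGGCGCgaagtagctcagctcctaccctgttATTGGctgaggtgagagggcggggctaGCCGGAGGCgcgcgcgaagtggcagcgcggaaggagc
Cdk1: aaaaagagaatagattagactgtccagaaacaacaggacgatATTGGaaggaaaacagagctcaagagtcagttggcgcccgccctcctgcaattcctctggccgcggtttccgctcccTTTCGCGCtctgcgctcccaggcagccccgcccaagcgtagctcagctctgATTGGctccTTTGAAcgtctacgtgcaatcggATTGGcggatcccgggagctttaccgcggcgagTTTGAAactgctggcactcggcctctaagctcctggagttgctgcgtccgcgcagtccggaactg

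The CCAAT box was the most widely shared of these letters. It lay in 21 of the 29 promoters (72.4%), against 41.1% of the 27025 genes with a promoter in the table. TTTGAA was present in 8 of the 12 promoters of G2 and mitosis genes (66.7%) and in 10 of the 29 (34.5%), against 20.2% of all genes. The E2F letters occurred in 4 of the 6 promoters of licensing genes (66.7%) and in 5 of the 29 (17.2%), against 0.929% of all genes. Of the 12 G2 and mitosis promoters only 1, that of Cdk1, carried them. They were in 0 of the 4 G1 promoters and 0 of the 5 of fork and nucleotide genes. GCCNNNGGC was found in 9 of the 29 promoters (31%), among them 3 of the 4 of the G1 group, against 18.5% of all genes. A match is a description of the letters and not of a bound site.

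Mutant sample 1 stood apart from the other 5 samples. Averaged over the 5 other arrays, its correlation of log2 signals was 0.94, where the other samples lay at or above 0.961. It carried strong signal for markers of other tissues. The summed signal of the 5 decidua and uterus markers was 49657, 794 and 668 in mutant samples 1, 2 and 3, against 427 to 717 in control samples, with the prolactin-family hormone Prl8a2 at 14204 in mutant sample 1 and at most 61.2 elsewhere. Prl3c1, also of that list, was near 0 in all samples (2.18 to 40.4). The 5 smooth muscle markers summed to 44912 in mutant sample 1 and to between 6219 and 8385 in the others, and the 5 leukocyte markers to 10430 and to between 4875 and 6014. Signal of the 8 basal keratinocyte markers, which include Krt5, Krt14 and Trp63, was lowest in the same sample, at 37305 against 56143 and 68520 in the other mutant samples and 55853 to 60851 in control samples. Markers of skin were present in every sample, with the 9 suprabasal keratinocyte markers summing to between 193914 and 241503 and the 7 fibroblast markers to between 120778 and 138011. The highest-signal probe set of Tfap2c did not differ between groups beyond its error, with a log2 difference of 0.12 (SE 0.14), and with the altered region unnamed in the labels this signal checks no label.

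No cell cycle or replication gene passed the test between Tcfap2c mutant and control skin. The test was limma, two-sided, on log2(signal + 24.48), where the added constant is the 20th percentile of all signals. P-values were adjusted by Benjamini-Hochberg across the 22518 probe sets whose mean log2 signal lay above the median of the array. Of all those probe sets 0.00444% passed an adjusted p of 0.05, and 0 of the 34 genes did, with a lowest adjusted p of 0.9999. At an unadjusted p under 0.05 there was 1 gene of 34 (2.94%), Ccnd1, which was lower in mutant samples, against 3.42% of all probe sets in either direction and 1.97% lower. The differences were small. The median over the 34 genes was -0.06 on the log2 scale, against -0.02 over all probe sets tested, and single differences (mutant minus control) ran from -0.42 for Tyms to 0.15 for Cdk2.

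The signs leaned one way. Differences were negative for 26 of the 34 genes (76.5%), against 55.6% of all probe sets tested. The samples of the groups were fully separate for 4 genes (11.8%, against 8.33% of all probe sets), all lower in the mutant samples, namely Ccnd1, Mcm3, Mcm4 and Tyms. Among all probe sets, 5.03% were lower without overlap and 3.3% higher without overlap, and no gene of the list was higher in that way. These shares are a description of linked genes in the same samples, and their difference from the background was not tested.

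The precision of the chosen probe set of each gene bounds what could have gone undetected in its signal. Other probe sets of a gene are not bounded by it. A dimmer Rrm2 probe set had an SE of 0.28, against 0.15 for the chosen one. A dimmer Mcm5 probe set differed by -0.33 (SE 0.16), against -0.09. The 95% intervals of 28 genes lay within a 1.5-fold change in either direction, and those of 33 lay within a 2-fold change, without adjustment for the number of genes. Intervals of 6 genes reached past a 1.5-fold decrease, namely Ccnd1, E2f1, Cdc6, Mcm3, Tyms and Plk1. No interval reached a 1.5-fold increase. All of these intervals rest on the fit that includes mutant sample 1. Without that sample, differences ran from -0.35 (SE 0.24) for Tyms to 0.29 (SE 0.15) for Plk1, and intervals of that setting are not given here. Pcna had the narrowest interval (half-width 0.24 on the log2 scale) and E2f1 the widest (0.60).

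**Figure D1:**
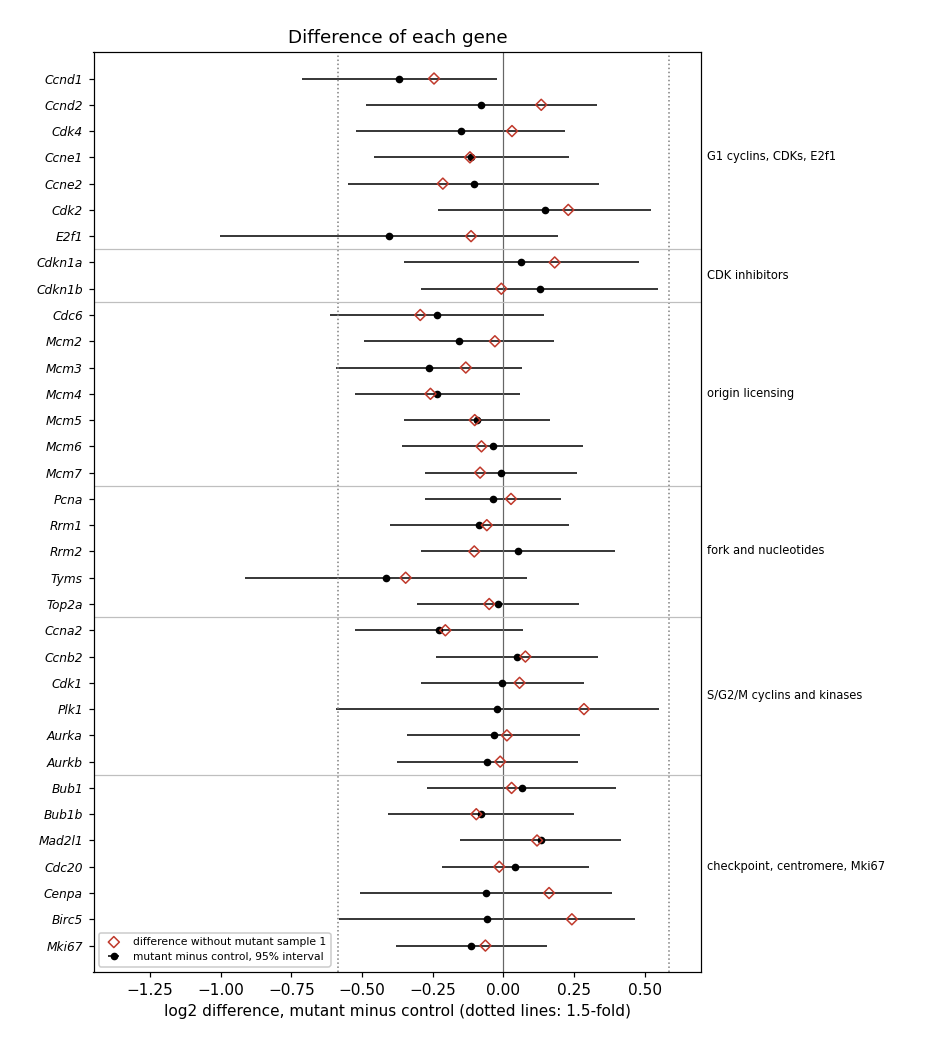
Log2 difference (mutant minus control) of each of the 34 genes, by role. Black points and bars are the differences of all 6 samples with 95% intervals, open diamonds the differences without mutant sample 1, and dotted lines a 1.5-fold change. The interval of Ccnd1 is the only one that does not reach 0, and E2f1 has the widest.

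The G1 genes held the gene with the smallest p of the list. Ccnd1, which encodes cyclin D1, the mitogen-induced partner of Cdk4, had a signal of 2859, 3291 and 4157 in mutant samples 1, 2 and 3, against 4261, 4606 and 4309 in control samples. Every mutant sample lay below every control sample, with mutant sample 3 only just below. The log2 difference was -0.37 (SE 0.15, limma adjusted p = 0.9999, unadjusted p = 0.0386). The other probe sets of Ccnd1 differed by -0.15 and -0.12, and their samples overlapped. Without mutant sample 1 the difference of the brightest probe set was -0.25 (limma unadjusted p = 0.079). With 1 sample left out in turn the list held 0 or 1 genes at an unadjusted p under 0.05, against 435 to 1607 of all probe sets tested.

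E2f1, a transcription factor that switches on replication genes, had 266, 521 and 491 in mutant samples, against 639, 438 and 592 in control samples. The groups overlapped and the lowest value was that of mutant sample 1. The difference of -0.40 (SE 0.26) shrank to -0.11 without that sample. Cdk4, the kinase partner of D cyclins, was likewise lowest in mutant sample 1, with 3653, 5465 and 5227 in mutant samples, against 5266, 4958 and 5487 in control samples. Its difference was -0.15, and 0.03 without mutant sample 1.

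Ccnd2, which encodes cyclin D2, had 4292, 7011 and 6383 in mutant samples, against 6462, 6105 and 5738 in control samples. Only mutant sample 1 lay below the control range, and the difference was -0.08, or 0.13 without that sample. The E cyclins Ccne1 and Ccne2, which activate Cdk2 at the entry to S phase, differed by -0.11 each, and both overlapped between groups. Ccne1 had 653, 609 and 684 in mutant samples, against 735, 771 and 612 in control samples. For Ccne2 the signals were 1250, 913 and 1078 in mutant samples, against 1412, 1206 and 904 in control samples, the control range covering that of the mutant samples. Cdk2 itself had 978, 994 and 1371 in mutant samples, against 1014, 929 and 1037 in control samples, a difference of 0.15 with mutant sample 3 above all others. Over the 7 G1 genes the median difference was -0.11. The median deviation of the group from the control mean was -0.50 in mutant sample 1, -0.07 in mutant sample 2 and -0.04 in mutant sample 3. Beside it, the basal keratinocyte markers deviated by -0.53, 0.22 and -0.11 in the same samples, and their part in the G1 values was not tested. In bulk skin, fewer cells of a type and less RNA per cell cannot be told apart.

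**Figure D2:**
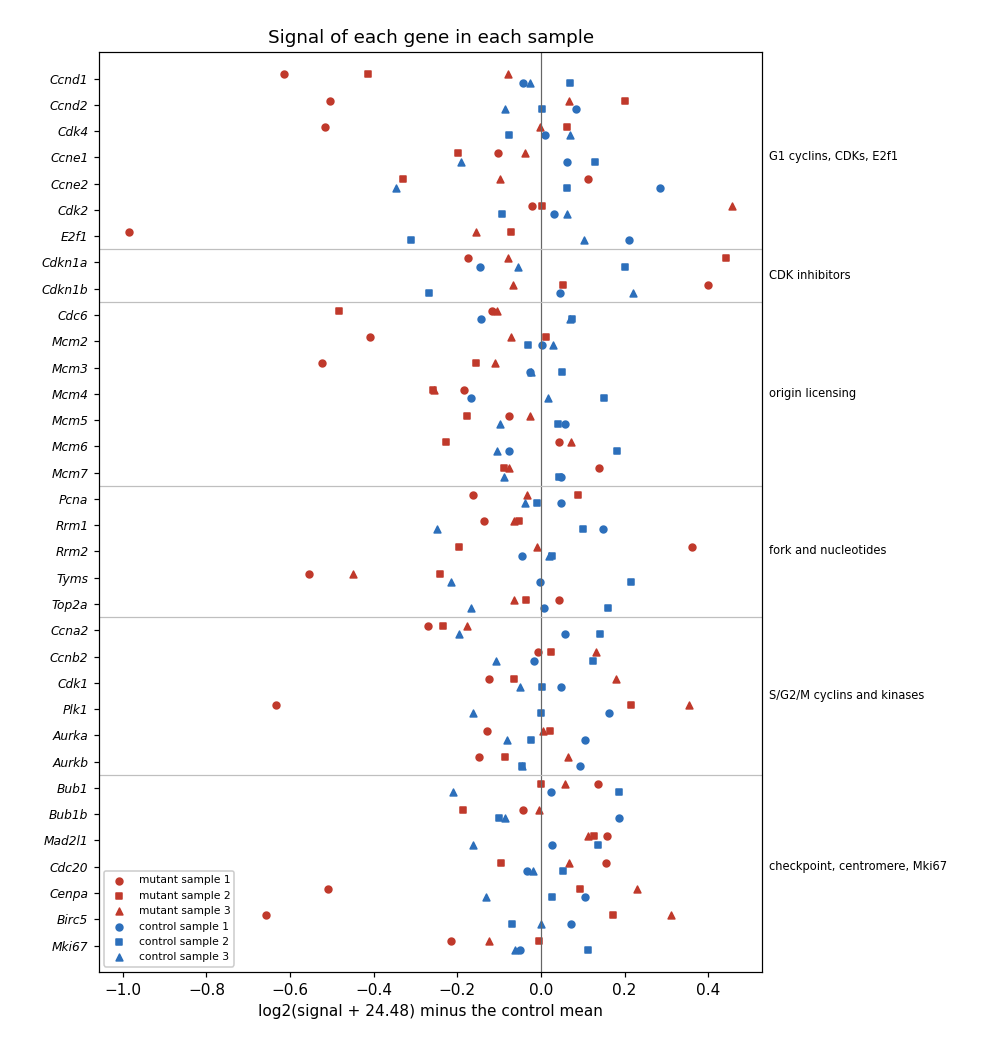
Signal of the 34 genes in each sample as log2(signal + 24.48) minus the control mean of the gene, with mutant samples in red above control samples in blue and a symbol for each sample number. Mutant sample 1 lies far to the left for E2f1, Birc5, Plk1, Ccnd1, Tyms, Mcm3, Cdk4, Cenpa and Ccnd2. For these genes the control samples lie closer than that sample to the control mean, which is the zero line.

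The CDK inhibitors did not differ between groups beyond their error. Cdkn1a encodes p21, which is induced by p53 and blocks cyclin-CDK complexes, and its signal was 2428, 3734 and 2593 in mutant samples, against 2476, 3155 and 2636 in control samples. Its difference was 0.06 (SE 0.18), with a 95% interval of -0.35 to 0.48. A second probe set of Cdkn1a differed by 0.01. Cdkn1b, which encodes p27, an inhibitor that accumulates in cells leaving the cycle, had 1181, 923 and 848 in mutant samples, against 919, 735 and 1040 in control samples. The samples overlapped and the difference was 0.13 (SE 0.19).

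Among p53 pathway genes, 11 of 13 listed had a tested probe set, 7 differences were positive and 4 negative, and 0 passed the threshold. Trp53inp1, a stress-induced p53 target, had the smallest p, with 2129, 2561 and 2257 in mutant samples against 1929, 1563 and 1682 in control samples. Its samples did not overlap and the difference was 0.42 (SE 0.14, limma adjusted p = 0.9999), but a second probe set differed by 0.00. Gadd45a, a damage-induced gene, had 1011 in mutant sample 1 and 399 and 343 in the other mutant samples, against 249 to 517 in control samples. Pmaip1 and Bbc3, both inducers of apoptosis, differed by 0.25 and 0.25, and their samples overlapped.

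Origin licensing, as listed here, was the one role of the 6 in which every gene had a negative difference. This was so for all 7 genes, Cdc6 and Mcm2 to Mcm7, and for all 18 of their tested probe sets, with a median over the 7 genes of -0.16. The sign held for all 7 after quantile normalization and after median centring. It held for 6 with array weights, and for 5 to 7 when 1 sample was left out. The differences themselves ran from -0.26 to -0.01, and none passed the test. Over all probe sets tested 55.6% of differences were negative, and probe sets of the same gene are not separate evidence. Licensing genes outside the list went both ways. Orc1, Orc3, Orc4, Orc6 and Cdt1 were at 0.05, 0.06, 0.02, 0.05 and 0.04, and Orc2 and Orc5 at -0.14 and -0.04.

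Markers of several cell types had mostly negative differences, and markers of others had mostly positive ones. Of 5 markers each, 4 were negative for mast cells (median -0.30), melanocytes (-0.17) and endothelium (-0.10), and 6 of 9 for suprabasal keratinocytes (-0.08). Over all probe sets 55.6% were negative. All 5 leukocyte and all 4 tested smooth muscle markers were positive, as were 2 of 3 erythroid and 3 of 4 decidua and uterus markers. All 7 hair placode markers were negative, with a median of -0.17, and 0 of them passed the test. Their summed signal was 3992, 6170 and 5173 in mutant samples, against 7300, 6362 and 7788 in control samples, so that the groups did not overlap. The mast cell marker sums were also separate, at 24794 to 27836 in mutant and 28088 to 32317 in control samples. Edar, Dkk4 and Lef1 differed by -0.01, -0.11 and -0.11, with overlapping samples. Of all probe sets 5.03% were lower without overlap, and of the placode markers 2 of 7. The 2 placode genes whose samples did not overlap, named after their values were seen, were Shh, the hedgehog ligand, at -1.02 (limma adjusted p = 0.205), and Lhx2, a transcription factor of hair follicles, at -0.64 (limma adjusted p = 0.9999). The difference of Shh was -1.04 without mutant sample 1 and then passed the test (limma adjusted p = 0.0268), as 0.173% of all probe sets did. With any other sample left out it did not pass (limma adjusted p = 0.211 to 0.9999). All 8 basal keratinocyte markers were negative as well, with a median of -0.14, but each overlapped between groups and their sum was low in mutant sample 1 alone. The part of these markers in the values of the licensing genes was not tested.

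Mcm3, a subunit of the replicative helicase, had 1752, 2269 and 2345 in mutant samples, against 2485, 2621 and 2491 in control samples. The samples did not overlap, the difference was -0.26 (SE 0.15), and without mutant sample 1 it was -0.13. Its 4 other tested probe sets all overlapped between groups and differed by -0.11, -0.18, -0.00 and -0.14. Mcm4, another subunit, had 2620, 2486 and 2490 in mutant samples, against 2649, 3311 and 3017 in control samples. Its mutant values were close to each other and just below the lowest control value, with a difference of -0.23 (SE 0.13), and -0.26 without mutant sample 1. The second Mcm4 probe set, at -0.19, overlapped. Cdc6, which loads the helicase onto origins, had 630, 483 and 636 in mutant samples, against 618, 723 and 720 in control samples. The groups overlapped through 1 control sample, and the difference was -0.23 (SE 0.17).

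The other subunits lay closer to 0. Mcm2 differed by -0.16, with 1192 in mutant sample 1 and 1605 and 1511 in the other mutant samples, against 1557 to 1622 in control samples, and the difference was -0.03 without that sample. Mcm5, Mcm6 and Mcm7 differed by -0.09, -0.04 and -0.01, all with overlapping samples. Mcm6 had 3287, 2726 and 3355 in mutant samples, against 3027, 3626 and 2965 in control samples. Mcm7 had 6332, 5408 and 5446 in mutant samples, against 5940, 5919 and 5399 in control samples. For Mcm5, Mcm6 and Mcm7, dimmer probe sets gave larger differences than the chosen one. The reverse held for Mcm2, whose dimmer probe set was at -0.06. The dimmer Mcm6 probe set was at -0.18, with overlapping samples. The dimmer Mcm5 probe set had 1093, 1586 and 1444 in mutant samples, against 1830, 1733 and 1596 in control samples, a difference of -0.33 without overlap. One Mcm7 probe set had 2354, 2722 and 2387 in mutant samples, against 2838, 2845 and 3145 in control samples, a difference of -0.24 without overlap, while the brightest one overlapped.

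Genes of the replication fork and of nucleotide supply had differences near 0, apart from Tyms. Pcna, the sliding clamp of DNA polymerase, had 13121, 15610 and 14334 in mutant samples, against 15174, 14577 and 14306 in control samples. Its difference was -0.04 (SE 0.11), with a 95% interval of -0.28 to 0.21, the narrowest of the list. All 3 control values lay within the mutant range. Top2a, the topoisomerase that untangles replicated DNA, differed by -0.02 (SE 0.13), and Rrm1, the large subunit of ribonucleotide reductase, by -0.08 (SE 0.14). Tyms, which makes thymidylate, had 123.4, 159.1 and 134.5 in mutant samples against 192.4, 227.7 and 162.6 in control samples. Its signal lay close to the filter (about 114), its samples did not overlap, and its difference was -0.42 (SE 0.22). A second Tyms probe set pointed the other way, at 0.24.

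The small subunit gene Rrm2 showed how far probe sets of 1 gene can part in mutant sample 1. Its brightest probe set had 6701, 4545 and 5181 in mutant samples, against 5054, 5306 and 5285 in control samples, so that mutant sample 1 was the highest of all. Another probe set had 1210, 2491 and 2474 in mutant samples, against 2191, 1713 and 2608 in control samples, so that the same sample was the lowest. Ccna2, which encodes cyclin A2 of S phase and G2, behaved in part alike. One of its probe sets had 1614, 2918 and 2699 in mutant samples, against 2402, 2340 and 2766 in control samples, with mutant sample 1 far below the rest. Its brighter probe set had 2716, 2785 and 2898 in mutant samples, against 3411, 3616 and 2859 in control samples, with no such gap. That probe set differed by -0.23 (SE 0.13), and its groups overlapped through control sample 3.

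The kinases and cyclins of mitotic entry were close to equal in the groups. Cdk1, the kinase that drives entry into mitosis, had 3122, 3256 and 3858 in mutant samples, against 3523, 3411 and 3288 in control samples, and a difference of -0.00 (SE 0.13). The control range lay within the mutant range, and the 95% interval was -0.29 to 0.28. Ccnb2, which encodes cyclin B2, had 2155, 2202 and 2375 in mutant samples, against 2141, 2361 and 2009 in control samples, a difference of 0.05. The Aurora kinase genes Aurka, of spindle poles, and Aurkb, of the chromosomal passenger complex, differed by -0.03 and -0.06, and their samples overlapped. Aurka had 969, 1077 and 1064 in mutant samples, against 1143, 1044 and 1002 in control samples. Aurkb had 723, 755 and 841 in mutant samples, against 858, 777 and 777 in control samples, with mutant sample 1 the lowest for both.

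Plk1, a kinase of spindle assembly, spread far more within the mutant group. It had 570, 1046 and 1153 in mutant samples, against 1007, 897 and 799 in control samples. Mutant sample 1 was the lowest and mutant samples 2 and 3 the highest of all, and the SD on the log2 scale was 0.53 in mutant and 0.16 in control samples. Its difference of -0.02 became 0.29 once mutant sample 1 was left out.

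Birc5 and Cenpa were likewise lowest in mutant sample 1 and highest in mutant sample 3. Birc5 encodes survivin, which belongs to the chromosomal passenger complex, and had 2478, 4424 and 4873 in mutant samples against 4121, 3733 and 3920 in control samples. The group means were equal to within rounding, at 3925 ± 1273 for the mutant group against 3925 ± 194 for the controls (SD, n = 3 each), and the difference without mutant sample 1 was 0.24 (limma adjusted p = 0.699). Cenpa, the histone H3 variant of centromeres, had 1482, 2264 and 2492 in mutant samples, against 2284, 2162 and 1933 in control samples. Mutant sample 2 lay just below control sample 1, within the control range. Its difference was -0.06, and 0.16 without mutant sample 1. In that sample the decidua, smooth muscle and leukocyte markers were high and the basal keratinocyte markers low, as given above, and their part in these values was not tested.

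Among the checkpoint genes Mad2l1, Bub1, Bub1b and Cdc20, mutant sample 1 was the lowest sample for none of the brightest probe sets. Mad2l1, which encodes the checkpoint protein Mad2, had 3162, 3092 and 3064 in mutant samples, against 2883, 3116 and 2530 in control samples. The mutant values were nearly the same, 1 of them above and the others inside the wider control range, with a difference of 0.13 (SE 0.13). The checkpoint kinase gene Bub1 and its relative Bub1b differed by 0.07 and -0.08. Bub1 had 1411, 1282 and 1334 in mutant samples, against 1303, 1461 and 1104 in control samples, and Bub1b had 1108, 1000 and 1139 in mutant samples, against 1304, 1064 and 1074 in control samples. Both overlapped. Cdc20, the activator of the anaphase-promoting complex that the checkpoint restrains, had 7152, 6001 and 6726 in mutant samples, against 6269, 6660 and 6331 in control samples. It differed by 0.04 (SE 0.11), and its dimmer probe sets by -0.10 and 0.02.

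Mki67, which encodes the proliferation marker Ki-67, had 4666, 5401 and 4971 in mutant samples, against 5229, 5860 and 5186 in control samples. The groups overlapped, and the difference was -0.11 (SE 0.12) with a 95% interval of -0.38 to 0.15. Over the 7 checkpoint, centromere and marker genes the median was -0.06, and over the 6 S, G2 and M cyclins and kinases it was -0.03. Without mutant sample 1 these medians were 0.03 and 0.03. The licensing median was -0.10 and the G1 median -0.11 in that setting, so the roles then took different signs, a difference between roles that was not tested.

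Spread within groups was lower for the chosen probe sets of these genes than for all probe sets tested. The chosen ones are the brightest of each gene, and no comparison at equal brightness was made, so the values do not describe the genes as such. The median SD on the log2 scale was 0.16 among mutant and 0.12 among control samples for the 34 genes, against 0.25 and 0.16 for all probe sets tested. Mutant samples spread more than control samples for 20 of the 34 genes (58.8%), where 69.4% of all probe sets did so. Plk1 and Birc5 had the largest mutant SDs, 0.53 and 0.52, and Mad2l1 the smallest, 0.02.

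Low values gathered in mutant sample 1 and high values in control sample 2. Mutant sample 1 was the lowest of the 6 samples for 17 genes (50%), against 31% of all probe sets tested, and the highest for 5. Control sample 2 was the highest for 11 genes (32.4%), against 9.41% of all probe sets. Mutant sample 3 and control sample 1 were the lowest for 0 genes, against 12.7% and 10.7% of all probe sets. Median deviations of the 34 genes from the control mean were -0.13, -0.06 and -0.03 in mutant samples 1, 2 and 3, against 0.04, 0.05 and -0.07 in control samples 1, 2 and 3. Control sample 3 thus lay below mutant samples 2 and 3.

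**Figure D3:**
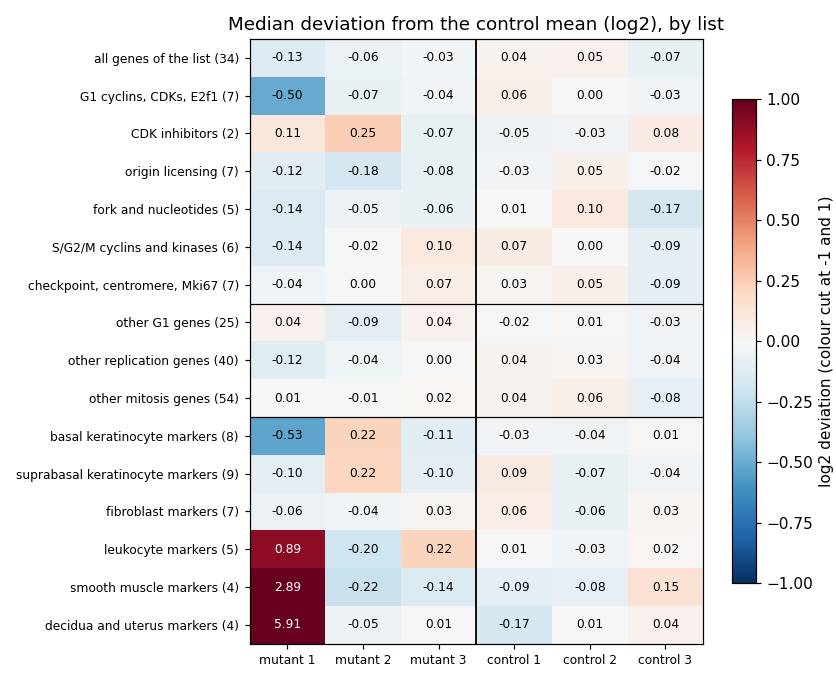
Median deviation from the control mean (log2) in each sample, for all 34 genes, their 6 roles, 3 further lists of the pathway and 6 lists of cell type markers, with the number of genes in brackets and mutant samples on the left. The cells of the cell cycle lists lie within 0.2 of 0, apart from -0.50 for the G1 genes in mutant sample 1 and 0.25 for the CDK inhibitors in mutant sample 2, against 5.91 in mutant sample 1 for the decidua and uterus markers.

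Leaving out mutant sample 1 did not bring any of the 34 genes past the test. Over all probe sets 39 (0.173%) then passed an adjusted p of 0.05, and 0 of the 34 genes did, the lowest adjusted p being that of Birc5 (0.699, limma). At an unadjusted p under 0.05 there were 0 of 34 genes, against 7.14% of all probe sets. The number of negative differences among the 34 genes was 21 in that setting, against 11716 of all 22518 probe sets tested. The median over the 34 genes was -0.04, against -0.01 over all probe sets tested.

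Genes of the pathway outside the list gave the same picture of small differences. Of 122 further genes of G1 control, replication and mitosis, 119 had a tested probe set, 65 had a negative and 54 a positive difference, and 0 passed the threshold. Their median was -0.02 on the log2 scale, and their range was -0.56 for Nuf2 to 0.39 for Ncapd2. Full separation of the groups occurred for 2 of the 119 in each direction, against 5.03% lower and 3.3% higher of all probe sets tested. Negative differences made up 54.6% of the 119, against 55.6% of all probe sets tested. By set, 15 of 25 G1 genes, 15 of 40 replication genes and 24 of 54 mitosis genes had a positive difference.

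Ncapd2, a condensin subunit that compacts mitotic chromosomes, had the smallest p of these genes, with 967, 1319 and 1136 in mutant samples against 908, 841 and 828 in control samples. Every mutant sample lay above every control sample, mutant sample 1 only just, and the group means differed by 0.39 (SE 0.16, limma adjusted p = 0.9999), while its dimmer probe set differed by -0.26. Mybl2, the B-Myb factor of mitotic transcription, had 151, 165 and 183 in mutant samples, against 283, 197 and 225 in control samples. It differed by -0.43 (SE 0.21), and its dimmer probe set by -0.50, both without overlap. Nuf2, of the outer kinetochore, had 354, 520 and 765 in mutant samples, against 668, 1078 and 659 in control samples, which overlapped.

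Kif23, a kinesin of cytokinesis, differed by 0.31 (SE 0.19), and its samples overlapped. A dimmer tested probe set of Kif23 differed by 0.02. Prim1, the catalytic subunit of primase, had 1938, 2113 and 2083 in mutant samples against 2292, 2363 and 2395 in control samples, a difference of -0.20 (SE 0.12) without overlap. Its dimmer probe set, at -0.37, overlapped between groups. Pold1, a polymerase subunit, differed by 0.21, the clamp loader gene Rfc3 by -0.15, and Uhrf1, which keeps DNA methylation through replication, by -0.24. Dimmer probe sets of Pold1 and Uhrf1 differed by -0.04 and -0.32, with overlapping samples. That of Rfc3 differed by -0.32 without overlap. Uhrf1 was lowest in mutant sample 1 (1435), against 2344 and 2595 in the other mutant samples and 2239 to 2731 in control samples.

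In G1, Cdc25a, a phosphatase that activates Cdk2, had 873, 886 and 809 in mutant samples against 736, 772 and 726 in control samples. Its difference was 0.19 (SE 0.13), without overlap and not past the test. A dimmer Cdc25a probe set, at 0.21, overlapped between groups. Cdkn2c, a CDK4 inhibitor, differed by -0.27, E2f4, a repressor of the E2F family, by -0.35, and Cdk6, a partner of D cyclins, by -0.18, and all 3 overlapped between groups. A dimmer Cdk6 probe set differed by -0.09.

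**Figure D4:**
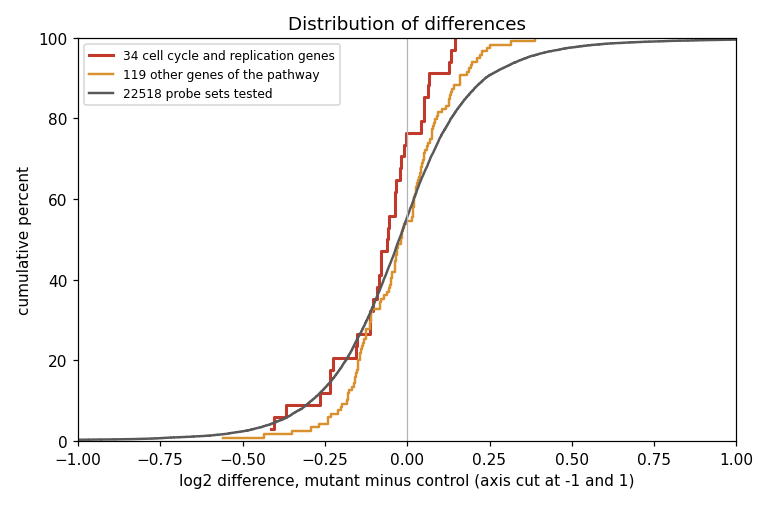
Cumulative percent of log2 differences (mutant minus control) for the 34 genes, for 119 other genes of the pathway and for all 22518 probe sets tested, with the axis cut at -1 and 1. The curve of the 34 genes ends at 0.15 and begins at -0.42, inside the tails of all probe sets.

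Genes whose promoters carry the AP-2 letters had differences on both sides of 0. The 8 measured genes with GCCNNNGGC, which include Ccne1 and Mcm6 printed above, had a median difference of 0.01 and ran from -0.40 (E2f1) to 0.15 (Cdk2), with 4 negative. The 20 measured genes with a promoter and without these letters had a median of -0.05, with 16 negative. For the 5 genes with the E2F letters the median was -0.04, and for the 10 with TTTGAA it was -0.03. No test was made of these medians.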

How the data were processed

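Skin RNA of 3 Tcfap2c mutant and 3 control samples was measured on 6 arrays. What the authors deposited is a MAS5 signal for each probe set, a linear intensity, per the submitters' processing notes, which give no version. Every column has a mean of 500 after trimming 2% at each end, so each array had been scaled separately before deposit. Groups came from the titles. Values were used as log2(signal + 24.48), with the 20th percentile of all signals as the added constant, which understates the change of dim probe sets. Control probe sets (64, by their AFFX names) did not enter, and probe sets with a mean log2 above the median (a signal of about 114) were tested, 22518 of 45101.

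Genes were named from GEO's platform annotation with symbols brought up to date by Entrez identifier in RefSeq (GRCm38.p6), which matched 34754 of 34958 probe sets with 1 symbol. A further 932 probe sets had several symbols and 9211 none. The test was that of limma 3.58.1, run in R 4.3.3 (lmFit, eBayes with a trend, two-sided, Benjamini-Hochberg over all probe sets tested, threshold 0.05), and the procedure was tested on simulated data. All members are named, with the up to 4 genes of smallest p in each further list of the pathway, and the licensing genes Orc1 to Orc6 and Cdt1. The members, the lists and the rule were chosen with earlier results of these data known. Alternatives were other pseudocounts (1 and 64), filters, normalizations, variance models, array weights, probe sets, the replicate number as a block, and each sample left out. The number of arrays limits the precision. Figures were drawn with matplotlib 3.10.9.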

Additional observations from a re-analysis of the deposited data

How the results depend on the processing

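None of the 34 genes passed an adjusted p of 0.05 under any alternative run, where limma's lowest adjusted p lay between 0.355 (Cdk2, array weights) and 0.9999. At unadjusted 0.05, 1 to 3 genes passed in settings with all samples, against 663 to 2532 probe sets, whose number tested changed with the filter. With a sample left out 0 or 1 genes passed, against 435 to 1607 probe sets. The shares were 2.94% of the genes and 3.42% of all probe sets in the main setting, and 0 and 7.14% without mutant sample 1. The median member difference kept its sign, between -0.08 and -0.02 in settings with all samples (-0.02 with array weights) and between -0.11 and -0.01 with 1 sample left out. Over all probe sets, 1 passed with all samples, 106 with array weights (47 higher, 59 lower), and 8, all higher, with the replicate number as a block. Leaving out 1 sample gave 1 to 39 (1 to 25 higher, 0 to 14 lower), 39 without mutant sample 1 and 3 without control sample 2. Same-numbered samples deviated with correlations of -0.05, -0.07 and 0.11, so the numbers were not taken as pairs, and the block changed no call among the 34 genes. Role medians, unadjusted counts and genes outside the list were recomputed as alternatives chosen after seeing the data.

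Of 607 gene values under alternatives 44, in 21 genes of the list, had the other sign, and of 339 values of other named genes 7. The Orc genes and Cdt1 were not among these. Shh, outside the list, passed the threshold with array weights (limma adjusted p = 0.00562) and without mutant sample 1, and in no other setting tested. Why the signs turned was not tested. Weighting the arrays gave 0.046 for Ccnd2, -0.016 for Cdkn1a, -0.0091 for Cdkn1b, 0.021 for Mcm6, -0.011 for Rrm2, 0.12 for Cdk1, 0.27 for Plk1, 0.028 for Aurkb, 0.16 for Cenpa, 0.23 for Birc5, 0.022 for Uhrf1, -0.066 for Gadd45a and -0.0051 for Tfap2c. Cdc20 was at -0.014 as a mean over its probe sets and at -0.10 once probe sets of the suffixes _s_at, _x_at and _a_at were dropped, where Pold1 was at -0.042.

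With 1 sample left out, differences ran from -0.22 to 0.13 for Ccnd2, -0.26 to 0.030 for Cdk4, -0.28 to 0.037 for Ccne2, -0.0093 to 0.23 for Cdk2, -0.13 to 0.18 for Cdkn1a and -0.0073 to 0.24 for Cdkn1b. They ran from -0.092 to 0.056 for Mcm6, -0.082 to 0.031 for Mcm7, -0.098 to 0.027 for Pcna, -0.10 to 0.18 for Rrm2 and -0.10 to 0.061 for Top2a. For mitotic genes they were -0.094 to 0.057 for Cdk1, -0.21 to 0.29 for Plk1, -0.075 to 0.018 for Aurka, -0.0040 to 0.11 for Ccnb2, -0.040 to 0.16 for Bub1, -0.13 to 0.015 for Bub1b, -0.015 to 0.11 for Cdc20, -0.21 to 0.16 for Cenpa and -0.24 to 0.24 for Birc5. Outside the list they were -0.40 to 0.017 for Uhrf1, -0.093 to 0.65 for Gadd45a and -0.092 to 0.43 for Pmaip1.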
